A study of Mus musculus with 24 samples.

Results

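Of the 24 brain RNA libraries in the series, 12 came from mice at postnatal day 25 (P25), and 6 of those 12 carried forebrain RNA as judged by the transcription factor gene Emx2. These 6 libraries, 3 wild type (WT 1, WT 2 and WT 3) and 3 Shank2 knock-out (KO 1, KO 3 and KO 4), are compared here. They were chosen by a measured value, an Emx2 level of at least 200. All mice were of strain C57BL/6N and are labelled naïve for drug treatment. The WT mice had intact Shank2, and the KO allele is not described further in the sources used here. Each of the 4 groups of age and genotype held 6 libraries, and the design text speaks of mice in the same number. The labels do not tie each library to an animal, so p-values measure the spread between these libraries. KO 4 is marked in the labels as second batch and the other 5 libraries carry no batch mark.

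Shank2 encodes a scaffold of the postsynaptic density, the protein layer beneath excitatory synapses. Shank proteins link glutamate receptor complexes, through SAPAP (Dlgap) proteins and Homer proteins, to each other and to the actin cytoskeleton. The forebrain joins regions with very different transcripts: glutamatergic neurons of the cortex and hippocampus, and GABAergic projection neurons of the striatum that respond to dopamine. A piece of brain with more striatum, attached pituitary or olfactory bulb therefore carries other transcripts at high levels whatever its genotype.

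All values are reads per gene after division by the library's size factor, as deposited, and differences are KO minus WT of log2(value + 1), each with its standard error (SE) from limma. For genes with low values such a difference understates the change. Emx2 stood at 285, 296 and 199.7 in WT 1, WT 2 and WT 3, and at 268, 409 and 312 in KO 1, KO 3 and KO 4. WT 3 lies just under the limit and meets it only when the value is rounded to a whole number. The nearest library outside was P25 KO 2 at 31.4, and the other 5 P25 libraries lay between 0 and 3.89. The 6 libraries held 27552844 to 40450835 recovered reads, with 3.76% to 4.62% of them from mitochondrially encoded genes.

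Markers showed that the 6 libraries did not hold the same parts of the brain. A score for each regional gene list was taken as the mean of log2(value + 1) over its members, relative to the mean over all 24 libraries. The list of cortical projection neurons holds Emx2, the gene that chose the libraries, so its score is a description only. It lay above that mean by 0.57 to 1.51 in the 6 libraries, and by 0.55 to 1.47 over its 22 other members. The label "brain" was matched unevenly by cerebellar genes. Cbln3, a cerebellin of cerebellar granule neurons, stood at 21.2, 23.9 and 2373 in WT 1, WT 2 and WT 3 and at 27.0, 37.2 and 29.9 in KO 1, KO 3 and KO 4. WT 3 alone was high, and the other 6 P25 libraries averaged 56793 in WT and 45943 in KO.

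Striatal content set WT 1 and WT 2 apart. Ppp1r1b encodes DARPP-32, a phosphatase inhibitor that relays dopamine signals in striatal projection neurons. Its values were 16283, 9025 and 951 in the WT libraries and 986, 1376 and 1519 in the KO libraries. WT 3 lay below all KO libraries while WT 1 and WT 2 lay far above them. The summed value of the 24 striatal genes was 157682 in WT 1, 95992 in WT 2 and 25914 in WT 3, and ran from 23401 to 30964 in the KO libraries.

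Pituitary hormone genes set WT 3 apart. Growth hormone (Gh) stood at 72845 in WT 3, prolactin (Prl) at 3576 and the follicle-stimulating hormone subunit Fshb at 452, and each was at 0 reads in the other 5 libraries. Pomc, the precursor of corticotropin, stood at 13131 in WT 3 and at 31.7 to 99.7 elsewhere. The summed value of the 20 pituitary genes was 93024 in WT 3 and 373 to 1002 in the other 5. WT 3 also held hindbrain transcripts. Hoxb5, a Hox gene of the caudal hindbrain and spinal cord, stood at 44.6 there and at 0 in the other 5.

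Olfactory bulb content set KO 4 apart. Tbx21, a transcription factor gene of mitral and tufted cells, stood at 557 in KO 4 and at 1.70 to 4.46 in the other 5 libraries. Omp, the marker of olfactory sensory neurons whose axons end in the bulb, stood at 672 in KO 4 and at 8.49 to 23.2 elsewhere. Omp is 1 of 10 listed genes of olfactory sensory axons, of which KO 4 was the highest library for 3 and the lowest for 2. KO 4 held the highest value of the 6 libraries for 20 of 24 olfactory bulb genes, and their summed value was 85931 there against 19220 to 26853 in the other 5.

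KO 1 carried hypothalamic and midbrain transcripts. Hcrt (orexin) and Pmch (melanin-concentrating hormone), both neuropeptides of the lateral hypothalamus, stood at 528 and 517 in KO 1. In the other 5 libraries Hcrt ranged from 0 to 8.76 and Pmch from 0 to 28.5. Hypothalamic transcripts were not confined to KO 1. Avp and Oxt of the same list stood at 377 and 162 in KO 1 and at 323 and 106 in WT 2. The hypothalamic score was 3.03 in KO 1, 1.16 in WT 2 and −0.62 to 0.14 in the remaining libraries. Slc6a3, the dopamine transporter of midbrain neurons, stood at 5.09, 11.9 and 2025 in the WT libraries and at 1529, 138 and 140 in the KO libraries. WT 3 and KO 1 were thus 1 library of each genotype with midbrain transcripts. In bulk tissue, fewer cells of a type and less RNA per cell cannot be told apart.

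**Figure D1:**
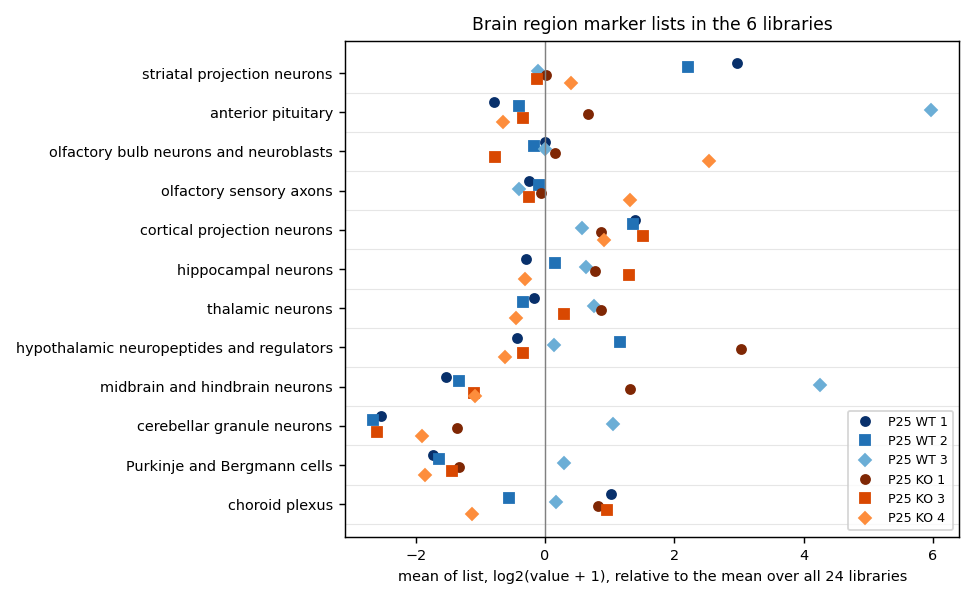
Score of 12 regional gene lists in the 6 libraries. The horizontal axis is the mean of log2(value + 1) over a list relative to the mean of all 24 libraries, and each point is 1 library (blue WT, orange and brown KO); WT 1 and WT 2 lie at 2.97 and 2.21 for striatal genes, WT 3 at 5.98 for pituitary genes, KO 4 at 2.54 for olfactory bulb genes and KO 1 at 3.03 for hypothalamic genes.

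The number of genes that stood out in a single library was largest in KO 4 and WT 3. Among genes with a value of at least 100, 29 in WT 3 and 45 in KO 4 were at least 4 times the highest of the other 5 libraries. KO 1 had 3 such genes, and WT 1, WT 2 and KO 3 had 0. Genes high in both WT 1 and WT 2, as the striatal genes were, are missed by this count. The leading genes in KO 4 included S100a5 (359), a calcium-binding protein gene of olfactory sensory neurons, and the serum albumin gene Alb (865). The leading genes in WT 3 were the pituitary hormones Gh, Prl, Cga, Fshb and Pomc, and those in KO 1 were Hcrt, Pmch and Hdc, the histidine decarboxylase gene of histaminergic neurons (248).

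The targeted gene was lower in every KO library. Shank2 (ENSMUSG00000037541, GRCm38 chr7:144001928-144424494, plus strand) stood at 7365, 7729 and 6382 in the WT libraries. It stood at 2315, 4380 and 4724 in the KO libraries, with KO 1 the lowest. The groups did not overlap, and the KO mean of 3806 ± 1303 (SD, n = 3) was 53.2% of the WT mean of 7159 ± 696 (SD, n = 3). The difference was −0.97 (SE 0.27), with an unadjusted p of 0.0086 and an adjusted p of 0.9997 by limma over 17880 genes. The 2-sided exact permutation test of 3 against 3 gave p = 0.1, the smallest it can give. The values count reads over the whole gene, so exons outside a deleted part are counted with the rest.

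The size of this difference was not the same across libraries. In WT 3 and KO 1, the libraries with midbrain transcripts, the KO value was 36.3% of the WT value. This sets a single KO library, the lowest for Shank2, against a single WT library and has no spread. In the other 4 libraries the KO mean was 60.3% of the WT mean. Whether the size of the difference goes with midbrain content was not tested. As a ratio to Shank1, the related scaffold gene expressed in the same forebrain neurons, Shank2 was 0.518, 0.529 and 0.509 in WT and 0.199, 0.210 and 0.255 in KO. The WT ratios lay closer together than the Shank2 values themselves, and the KO mean ratio was 42.7% of the WT mean ratio (2-sided exact permutation p = 0.1, the smallest possible). The ratio to Shank3 was 0.688, 0.882 and 1.13 in WT and 0.400, 0.472 and 0.602 in KO, which is 54.6%. Both ratios, and the split by midbrain transcripts, were chosen after the values had been seen.

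Neither related scaffold gene separated the groups. Shank1 stood at 14213, 14597 and 12533 in WT and at 11619, 20887 and 18518 in KO, a difference of 0.26 (SE 0.22). Shank3, which is also expressed in striatal neurons, stood at 10703, 8764 and 5637 in WT and at 5784, 9281 and 7840 in KO, a difference of −0.11 (SE 0.27). For both genes the groups overlapped, and WT 3 and KO 1 were the 2 lowest libraries for Shank3.

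**Figure D2:**
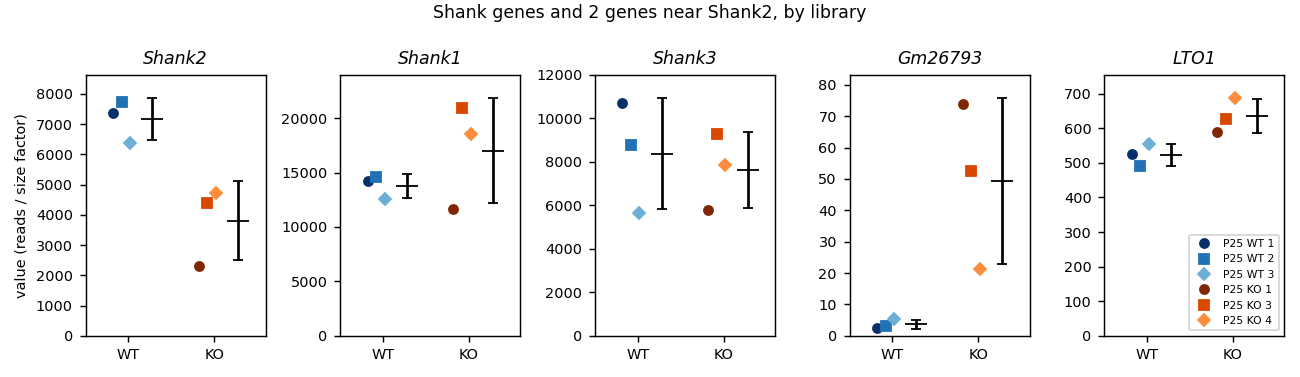
Values of the 3 Shank genes and of Gm26793 and LTO1 on chromosome 7 by library. The vertical axis is reads divided by the size factor from 0, points are libraries and the bars give the mean ± SD of 3 libraries; the groups do not overlap for Shank2, Gm26793 and LTO1, and they overlap for Shank1 and Shank3.

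The smallest p of all genes belonged to a non-coding gene near Shank2. Gm26793 (ENSMUSG00000096999, chr7:144894560-144897461, minus strand) is annotated as antisense, and its lower coordinate lies 470066 bases beyond the end of Shank2. Over 931 bases it overlaps Fgf15 on the opposite strand, whose values here were 0 to 5.87. No source used here states whether counting used strand, so reads of the pair cannot be told apart. Since this gene leads the ranking, the RefSeq promoter window of its RefSeq model is shown (GRCm38.p6, chr7:144899639-144899938, minus strand, 300 bases). Its start lies 2227 bases upstream of the start of the GENCODE model to which the reads were matched, and the window lies within Fgf15. Of the motifs TATAAA, TGACGTCA and CACGTG, searched on both strands, it held none.

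Gm26793: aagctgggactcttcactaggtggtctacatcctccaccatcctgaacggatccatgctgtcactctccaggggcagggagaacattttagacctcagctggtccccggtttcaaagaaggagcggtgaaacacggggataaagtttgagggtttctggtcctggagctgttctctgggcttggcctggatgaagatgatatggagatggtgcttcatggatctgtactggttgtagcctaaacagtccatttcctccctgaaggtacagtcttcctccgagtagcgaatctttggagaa

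The reads behind Gm26793 were few, 3, 3 and 6 in WT 1, WT 2 and WT 3 and 63, 48 and 25 in KO 1, KO 3 and KO 4. As values these were 2.55, 2.99 and 5.35 in WT and 73.9, 52.5 and 21.4 in KO. Every KO library lay above every WT library. The difference was 3.32 (SE 0.52), with an unadjusted p of 0.000408 and an adjusted p of 0.9997 by limma. Among P14 libraries the group means were 3.84 in WT and 39.1 in KO, and in the other P25 libraries 0 and 6.44.

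Other genes around Shank2 showed smaller differences. Of 16 tested neighbours on chromosome 7, Shank2 included, 6 were higher and 10 lower in KO, with a median of −0.08. Every KO library lay above every WT library for 2 of the 16, Gm26793 and LTO1, and below for 2, the targeted Shank2 and Ccnd1. Over all 17880 genes tested, 2.54% lay all above and 2.66% all below. LTO1, a factor for ribosome maturation, stood at 525, 492 and 554 in WT and at 589, 628 and 687 in KO, a difference of 0.28 (SE 0.11). Ccnd1, the cyclin D1 gene that drives entry into the cell cycle, stood at 1051, 1302 and 1268 in WT and at 862, 758 and 989 in KO, a difference of −0.47 (SE 0.14). These genes overlap by 1771 bases on opposite strands, so their reads may be split wrongly. Cttn, which encodes the actin-binding Shank partner cortactin, overlapped between the groups at 4116 to 4499 in WT and 4475 to 4842 in KO.

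Of the 17880 genes whose mean reached 10, none passed limma at an adjusted p of 0.05 (0 called, 0%). At an unadjusted p under 0.05 limma listed 285 genes (1.59%), of which 104 were higher (0.582%) and 181 lower (1.01%) in KO. On the recovered reads, edgeR called 0 genes (353 unadjusted) and DESeq2 called 8 (380 unadjusted). The 8 were Gm26793, higher in KO, and Lrrc17, Stk32a, Scn4b, Ptpn7, Syndig1l, Mybpc3 and Adamtsl5, lower in KO. The KO libraries lay all above the WT libraries for 455 genes (2.54%) and all below for 476 (2.66%), 931 in all (5.21%). The genes named next are the 10 positive and the 10 negative differences with the smallest p, and they are a description of the ranking and not a list of calls.

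The even split of these 20 genes is set by that choice, and all 20 had groups that did not overlap, which the choice by p favours. Other genes with a negative difference, Shank2 among them, had a smaller p than some of the 10 positive ones. Zfp57, a zinc finger gene that keeps DNA methylation at imprinted loci, stood at 444, 527 and 569 in WT and at 732, 810 and 1058 in KO. The difference was 0.75 (SE 0.17). At P14 the same gene had a WT mean of 955 and a KO mean of 1422, a difference of 0.54 (SE 0.15), while in the other P25 libraries the means were 516 and 504.

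Gria1, which encodes the GluA1 subunit of AMPA receptors, stood at 12633, 14257 and 13254 in WT and at 15799, 16903 and 18591 in KO. All KO libraries were higher, by 0.35 (SE 0.10) on the log2 scale. Pcdh20, a protocadherin of cell adhesion, stood at 856, 1084 and 1125 in WT and at 1358, 1637 and 1674 in KO (0.61, SE 0.14). Stxbp6, or amisyn, which binds the vesicle fusion machinery, stood at 2059, 2327 and 2231 in WT and at 2739, 3101 and 3977 in KO (0.55, SE 0.15). KO 4 was the highest library for Gria1, Pcdh20 and Stxbp6.

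Cbln2, a synaptic organizer that binds neurexins, stood at 897, 893 and 748 in WT and at 1143, 1101 and 1697 in KO. Trp73, the p53-family gene of Cajal-Retzius and ependymal cells, stood at 46.7, 43.8 and 49.9 in WT and at 68.1, 77.7 and 98.4 in KO. KO 4 was again the highest library for both. Among the remaining higher genes, values were low: the pseudogene Rps16-ps2 averaged 21.3 in WT and 59.8 in KO, the long non-coding Gm37584 17.4 and 36.5, and Gm26793 as given above. Reads of a ribosomal pseudogene can come from its parent gene, so Rps16-ps2 is uncertain.

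Of the 10 lower genes, Lrrc17 had the smallest p. It encodes a secreted leucine-rich repeat protein, and it stood at 61.1, 79.6 and 58 in WT and at 15.3, 10.9 and 4.28 in KO, a difference of −2.72 (SE 0.44). KO 4 was lowest, with 5 reads against 72, 80 and 65 reads in WT. With all 24 libraries and 3 region scores in the model, this difference was 2.21 in the other direction.

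Stk32a, a serine/threonine kinase gene, stood at 387, 273 and 304 in WT and at 169, 129 and 154 in KO (−1.08, SE 0.18). Adamtsl5, a gene of the extracellular matrix, stood at 242, 186 and 240 in WT and at 86.8, 127 and 110 in KO (−1.05, SE 0.20). At P14 the means of Adamtsl5 were 97.6 for WT and 59.2 for KO (−0.67, SE 0.27), and 122 and 151 in the other P25 libraries.

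Apln, the gene of the vascular peptide apelin, stood at 1080, 834 and 978 in WT and at 647, 660 and 609 in KO (−0.59, SE 0.12). Rnf207, a RING finger gene, had means of 336 ± 61.8 for WT and 195 ± 17.5 for KO (SD, n = 3). Mybpc3, a myosin-binding protein gene with a mean of 7748 in the other P25 WT libraries, stood at 118, 72.7 and 274 in WT and at 18.8, 40.5 and 18.8 in KO. WT 3, the library with cerebellar transcripts, was the highest for Mybpc3. Ptpn7, a phosphatase gene of blood cells, stood at 100, 51.8 and 24.97 in WT and at 4.69, 3.28 and 9.41 in KO, so WT 1 and WT 2 were again the highest. Xlr3a and Gm43185 averaged 46.2 and 26.1 in WT and 14.1 and 6.51 in KO.

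**Figure D3:**
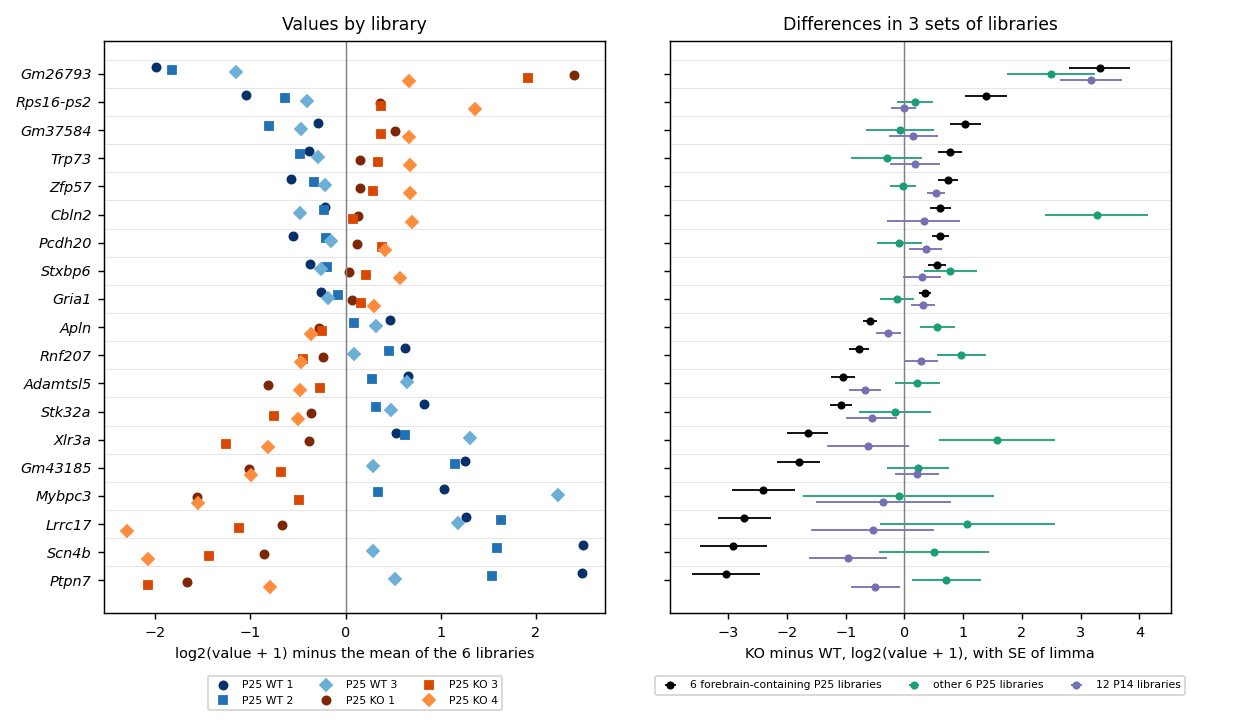
Of the 10 positive and 10 negative differences with the smallest p in the 6 libraries, 19 genes are shown. Left, log2(value + 1) of each library minus the mean of the 6 for that gene; right, the KO minus WT difference with the SE of limma in the 6 libraries, the other 6 P25 libraries and the 12 P14 libraries, where Gm26793 is at 3.32, 2.49 and 3.18.

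The other 6 P25 libraries and the P14 libraries share no library with the comparison, so their differences were set beside it. The other P25 libraries differ in tissue. Their score for cerebellar granule neuron genes was 3.59 to 4.59, against −2.65 to 1.05 in the 6 libraries compared. Of the 20 genes, 6 had the same sign in the other P25 libraries (30% against 41.3% of all genes tested and 36.7% of the 931 whose groups did not overlap). At P14 16 had the same sign (80% against 59.3% and 66.6%). Both held for 5 genes (25% against 23.5% and 24%), namely Gm26793, Cbln2, Stxbp6, Stk32a and Mybpc3. Tissue content was uneven at P14 too. The olfactory bulb score was 3.27, 3.10 and 2.49 in P14 KO 4, P14 KO 6 and P14 WT 5. It was −0.93 to 0.44 in the other P14 libraries. The midbrain and hindbrain score was 5.12 and 4.63 in P14 WT 3 and P14 KO 1, and −1.67 to 0.11 in the others. Whether this content bears on the shared signs was not tested. The KO effect in the 6 libraries minus that in the other P25 libraries was fitted for 17986 genes. It was called by limma for 0 (0%; 485 unadjusted, 2.7%), by edgeR for 0 (697 unadjusted) and by DESeq2 for 2 (783 unadjusted). The 2 were Slc5a7 and Scn4b. P25 KO 2 stood apart in the other P25 libraries, with a midbrain and hindbrain score of 4.74 against −1.90 to 0.45 in the other 5. Without it, a setting added after the values were seen, limma called 0 genes (338 unadjusted) and DESeq2 called 4 (427 unadjusted), namely Scn4b, Stk32a, Mybpc3 and Mir124-2hg, and no longer Slc5a7. For Shank2 this difference of effects was 0.70 (SE 0.45, adjusted p = 0.932 by limma), with other P25 means of 11942 in WT and 3948 in KO.

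Striatal projection neuron genes were lower in KO as a block. All 24 tested members had negative differences, against 8936 of 17880 genes (50%), and their median was −1.48 where that of all genes was 0.00. At an unadjusted p under 0.05 stood 6 of the 24 (25%, against 1.59% of all genes), and 0 were called. The 24 differences come from the same 6 libraries and are not independent of each other. In each of the 24 genes WT 1 was highest and WT 2 next among WT, and both lay above every KO library. WT 3 lay below every KO library for 12 genes, within their range for 9 and above them for 3. The lower KO values in the list thus came with a WT group in which 1 library resembled the KO libraries.

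The 3 genes with WT 3 above the KO libraries were Scn4b, Syndig1l and Drd2. Scn4b, the beta-4 subunit of sodium channels, stood at 20190, 10807 and 4374 in WT and at 1977, 1329 and 853 in KO, a difference of −2.91 (SE 0.56). This difference was −1.93 with the striatal score as covariate and −0.29 in the fit of all 24 libraries with 3 region scores. Drd2, the dopamine D2 receptor of the indirect pathway, stood at 1536, 766 and 382 in WT and at 262, 59.1 and 202 in KO, a difference of −2.38 (SE 0.68). It is also made by the pituitary and by midbrain dopamine neurons, and markers of both were high in WT 3. The midbrain marker Slc6a3 was high in KO 1 too (1529, against 2025 in WT 3), where Drd2 stood at 262. Whether such content bears on Drd2 was not tested. Syndig1l, a relative of an AMPA receptor regulator, stood at 3078, 1645 and 624 in WT and at 424, 218 and 424 in KO.

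Genes of both striatal output pathways lay in the same order. Drd1, the dopamine D1 receptor of the direct pathway, stood at 2425, 1560 and 183 in WT and at 266, 307 and 446 in KO. Adora2a, an adenosine receptor gene of the indirect pathway, stood at 4284, 2169 and 68.7 in WT and at 96.2, 139 and 316 in KO. For Drd1 and Adora2a, WT 3 was the lowest of the 6 libraries. Penk and Tac1, which encode the neuropeptides enkephalin and substance P, differed by −1.65 and −1.02, with KO values on both sides of those of WT 3 (1484 and 590).

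Taking the striatal score as a covariate moved the list median from −1.48 to 0.03; the score is the mean of the same genes. Without WT 3 the median was −2.55. In a fit of all 24 libraries with striatal, pituitary and olfactory bulb scores it was −0.26. With the pituitary score as covariate limma called 4 genes, and all 4 were lower in KO: Adora2a, Drd1, Ppp1r1b and Cd4. This covariate differs among the 6 libraries mainly by WT 3. In the fit with 24 libraries no gene was called (0 of 17880, 0%; 1346 unadjusted, 7.53%). Its smallest p belonged to Gm26793 (5.14, SE 0.87, adjusted p = 0.259 by limma) and then to Aph1b, Dvl3, Atf7ip and Cdk19, which had negative differences of −0.45 to −0.67.

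A set of 7 genes known from cholinergic neurons was read by library after the values had been seen, so it gives no independent support to any pattern. In 3 of the 7, Chat, Slc18a3 and Slc5a7, every KO library lay below every WT library (2.66% of all genes), and in Lhx8, Isl1, Ecel1 and Tacr1 the groups overlapped. Chat makes acetylcholine, Slc18a3 loads it into vesicles and Slc5a7 takes up choline. Slc18a3 lies within Chat (chr14:32408203-32465989, minus strand), so reads may be shared between them. Because both genes differ together and lie in 1 locus, their RefSeq promoter windows are shown (GRCm38.p6, minus strand, chr14:32465860-32466159 for Chat and chr14:32464801-32465100 for Slc18a3). Capitals mark a match to CACGTG, 98 bases before the start of the RefSeq model of Chat. The gene coordinates of Chat given above are of the GENCODE model, whose start lies elsewhere. Of 32851 promoter windows, 7.15% hold this motif. TATAAA (13.62% of windows) and TGACGTCA (1.79%) matched in neither, and CACGTG did not match in Slc18a3.

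Chat: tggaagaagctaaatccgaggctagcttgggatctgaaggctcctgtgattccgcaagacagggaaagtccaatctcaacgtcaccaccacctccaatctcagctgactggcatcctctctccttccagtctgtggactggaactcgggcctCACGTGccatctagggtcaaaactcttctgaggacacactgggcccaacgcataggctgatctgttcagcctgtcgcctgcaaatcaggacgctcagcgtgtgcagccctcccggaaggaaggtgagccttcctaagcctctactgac

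Slc18a3: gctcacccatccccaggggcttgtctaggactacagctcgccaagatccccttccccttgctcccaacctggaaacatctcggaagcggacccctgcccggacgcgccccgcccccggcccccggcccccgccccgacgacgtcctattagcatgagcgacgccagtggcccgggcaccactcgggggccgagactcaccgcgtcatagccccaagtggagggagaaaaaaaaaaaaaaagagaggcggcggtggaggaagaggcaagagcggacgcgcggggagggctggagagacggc

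Chat stood at 262, 223 and 139 in WT and at 22.3, 13.1 and 106 in KO, a difference of −2.62 (SE 0.72). Slc18a3 stood at 132, 105 and 80.2 in WT and at 9.39, 9.85 and 47.1 in KO (−2.57, SE 0.61). Slc5a7 stood at 332, 328 and 361 in WT and at 73.9, 41.6 and 197 in KO (−1.99, SE 0.51). KO 4 was the highest KO library for each of the 3.

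Markers of forebrain cholinergic neurons and of hindbrain differed between WT libraries, and bulk values do not show which cells expressed Chat. Lhx8, a transcription factor gene of forebrain cholinergic neurons, stood at 116, 137 and 0.892 in WT and at 7.04, 2.19 and 53.9 in KO. It was high in WT 1 and WT 2, lower in KO 4 and near 0 in WT 3. WT 3 instead held the hindbrain Hox gene Hoxb5 and Slc6a5, the glycine transporter of hindbrain and spinal neurons (1692 against 1.99 to 65.7 in the other 5). Whether the differences in Chat and its partners follow the tissue content of the libraries was not tested. In the other P25 libraries Chat stood at 0, 0.834 and 0 in WT and at 223, 62.2 and 0 in KO 2, KO 5 and KO 6. KO 2, the library with the high midbrain and hindbrain score, was the highest, and KO 6 was at 0 like 2 of the WT libraries.

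The medians of other regional lists depended on few libraries. The 15 tested pituitary genes had a median difference of −1.999, and 0.00 without WT 3. The 24 olfactory bulb genes had a median of 0.71 with 22 positive, and −0.20 without KO 4. Midbrain and hindbrain genes had a median of −0.48 in the 6 libraries, of 2.03 without WT 3 and of −1.87 without KO 1. In each of these 3 lists, leaving out 1 library removed or turned the median. Hypothalamic genes had a median of −0.02 (7 of 13 negative), which was −0.58 without KO 1. No gene was called in any of the 4 lists (0%).

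Cortical genes differed less. The 23 tested members had a median of 0.01, with 12 positive and 11 negative. Groups did not overlap for 1 (4.35%, near the 5.21% of all genes), with all KO libraries above the WT libraries. That gene was Neurod6, a transcription factor of cortical and hippocampal excitatory neurons, at 1419, 1831 and 1777 in WT and 1992, 3851 and 2082 in KO (0.60, SE 0.26, unadjusted p = 0.0572). KO 3 was the highest library for 11 cortical genes and WT 1 for 9, while WT 3 was the lowest for 13. Hippocampal genes had a median of 0.33 with 14 of 17 positive, and thalamic genes a median of 0.13 with 11 of 14 positive. KO 3 was the highest library for 12 of the 17 hippocampal genes, and their median was 0.16 without KO 1 and 0.61 without WT 3. The thalamic median was −0.13 without KO 1, 0.50 without WT 3 and 0.57 without KO 4. The cortical median was −0.29 without WT 3.

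**Figure D4:**
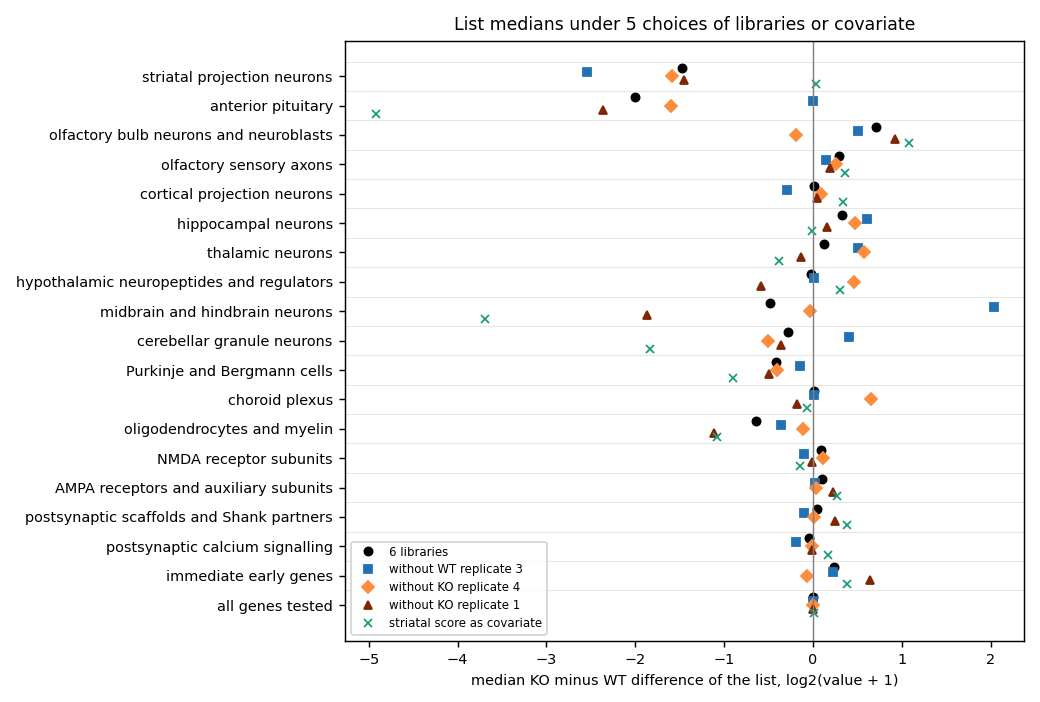
Median KO minus WT difference, log2(value + 1), of 18 gene lists and of all genes tested. Each symbol is a fit with all 6 libraries, without 1 library, or with the striatal score as covariate; the striatal median moves from −1.48 to 0.03 with its own score, the pituitary median from −1.999 to 0.00 without WT 3, and the median of all genes stays near 0.

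Glutamate receptor genes differed little between the genotypes. NMDA receptor subunits had a median of 0.09, with 4 of 7 positive. Grin1, the obligatory subunit, stood at 13228, 11984 and 9172 in WT and at 9721, 11834 and 10665 in KO (−0.08, SE 0.16). Grin2a and Grin2b, the main forebrain GluN2 subunits, differed by −0.06 (SE 0.31) and 0.11 (SE 0.27). For all 3 genes the groups overlapped, and other settings turned the sign. KO 3 was highest for Grin2a and Grin2b at 10522 and 26177.

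AMPA receptor subunits and their auxiliary proteins had a median of 0.10, with 13 of 18 positive. Groups did not overlap for 1 of the 18, Gria1 (5.56%, near the 5.21% of all genes), which was also the 1 gene at an unadjusted p under 0.05 (0.0125). Gria2, the subunit that sets calcium permeability, differed by −0.01 and Gria3 by 0.05. Nptx2, a pentraxin that clusters AMPA receptors, stood at 1887, 1580 and 1252 in WT and at 1435, 2283 and 3262 in KO, so that KO 1 lay within the WT range. Gria1 kept its sign in every one of 23 other settings, from 0.16 to 0.41, with a lowest adjusted p of 0.759. Its mean was 17200 in WT and 16096 in KO in the other P25 libraries.

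**Figure D5:**
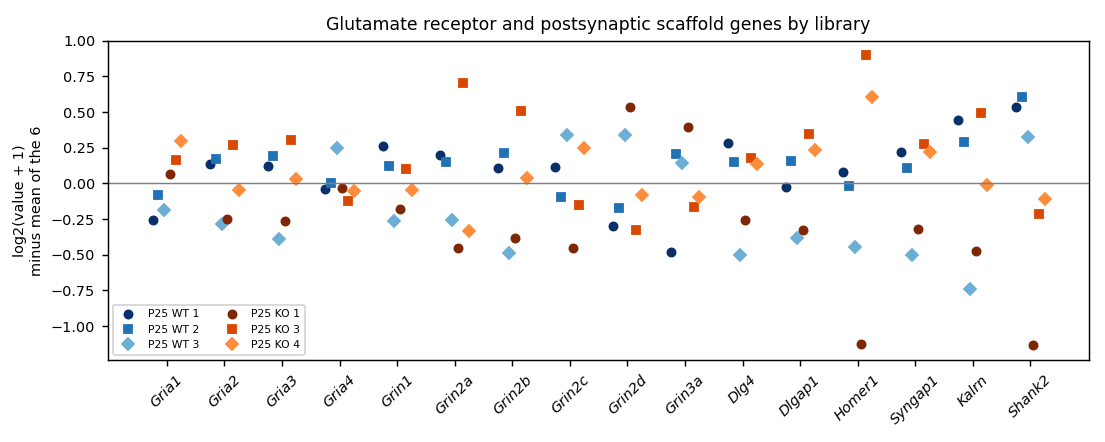
Glutamate receptor and postsynaptic scaffold genes by library. The vertical axis is log2(value + 1) minus the mean of the 6 libraries for that gene and each point is 1 library; Gria1 and Shank2 separate the genotypes, while for most scaffold genes WT 3 and KO 1 lie low together.

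Postsynaptic scaffolds and Shank partners had a median of 0.04, with 17 of 25 positive. Groups did not overlap for 1 of the 25, the targeted Shank2 (4%, near the 5.21% of all genes). Homer1, which joins Shank proteins to metabotropic receptors, stood at 5622, 5247 and 3902 in WT and at 2432, 9901 and 8094 in KO. KO 1 was lowest and KO 3 and KO 4 highest, so the KO libraries spanned the WT libraries. The same held for Dlgap1, at 14283, 16231 and 11137 in WT and 11582, 18443 and 17111 in KO, except that WT 3 was the lowest there. KO 1 or WT 3 was lowest for 21 of the 25 genes (11 and 10), and KO 3 was highest for 11. The 2 libraries with midbrain transcripts were thus the low libraries for most of these genes.

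Other synaptic lists had medians near 0 in the 6 libraries, and leaving out WT 3 lowered most of them. Kainate receptors were at −0.03, metabotropic glutamate receptors at −0.02, synaptic adhesion at −0.05, postsynaptic calcium signalling at −0.05 and presynaptic release at 0.02. Without WT 3 the medians were −0.20 for kainate receptors and for adhesion, −0.19 for calcium signalling and −0.14 for presynaptic release. NMDA receptors and scaffolds were then both at −0.11, and metabotropic receptors stayed at −0.02. GABA-A receptor subunits had a median of −0.11, with 8 of 13 negative. Gabra5, the alpha-5 subunit enriched in hippocampus, was the 1 of 13 whose groups did not overlap (7.69%, against 5.21% of all genes). All KO libraries lay above WT, at 1540, 2104 and 1991 in WT and 2360, 2627 and 2222 in KO (0.36, SE 0.14). Cplx1, complexin 1 of the release machinery, was the 1 of 20 release genes whose groups did not overlap (5%, near the 5.21% of all genes). All KO libraries lay below WT, at 22301, 19438 and 23257 in WT and 18357, 18357 and 17686 in KO (−0.25, SE 0.11).

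Myelin genes were lower in 1 KO library. All 20 oligodendrocyte and myelin genes had negative differences, with a median of −0.64, and none had groups that did not overlap. Mbp, which encodes myelin basic protein, stood at 170166, 93465 and 216356 in WT and at 190826, 102136 and 47027 in KO. KO 4 was the lowest library for 19 of the 20 genes, and without it the median was −0.11. WT 3 was the highest for 16.

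Immediate early genes, which neurons switch on with activity, were mostly higher in KO by sign, 19 of 21 with a median of 0.23. Arc stood at 2578, 2809 and 1872 in WT and at 1155, 3001 and 9013 in KO. Fos stood at 369, 585 and 642 in WT and at 204, 620 and 1868 in KO. KO 4 was the highest library for 16 of the 21 genes and KO 1 the lowest for 13. Without KO 4 the median was −0.07, and without KO 1 it was 0.64. All 13 mitochondrially encoded genes were lower by sign with a median of −0.22, KO 4 being the lowest for each, and the median was −0.12 without KO 4. KO 4 is the 1 library of the second batch among those compared, so within them batch cannot be told apart from that library's tissue content. A score of the mitochondrial list, taken as for the regional lists, was also read over all 24 libraries. It ran from −0.74 to −0.14 in the libraries marked second batch, with KO 4 at −0.30. In the unmarked libraries of both ages it ran from 0.23 to 0.62. Whether batch plays a part in these lists was not tested.

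Within the 5 libraries that carry no batch mark, 0 genes were called by limma (228 unadjusted). Shank2 differed by −1.16 and Gm26793 by 3.82 there. Microglia, astrocytes and vascular cells had list medians of −0.01, 0.05 and −0.06, and no member of any of these lists was called.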

How the data were processed

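RNA was measured by sequencing in 24 libraries prepared with an Illumina TruSeq kit, per the labels' protocols. Trimmomatic 0.35, TopHat2 2.1.0, HTSeq and DESeq2 on GRCm38 are named in the submitters' processing notes, and no source used here states the annotation release or strand setting. Each deposited value is a normalised signal, the reads of a gene over the library's size factor (0.852 to 1.18 in the 6 libraries); this unit was read from the values, since 100% of nonzero values were whole multiples within 0.01. No sample column was unused (0). Of 46078 identifiers, 45143 (98.0%) had symbols in GENCODE M21.

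KO was compared with WT by limma 3.58.1 (R 4.3.3) with a mean-variance trend on log2(value + 1), in the 6 libraries, for 17880 genes with a mean of at least 10, with Benjamini-Hochberg adjustment at 0.05. Because the table holds normalised values, edgeR 4.0.16 and DESeq2 1.42.0 ran on recovered reads as alternatives. The script was tested on simulated data. Members, lists, named genes and tests were chosen with earlier results of these data known. Genes were named as targets and Shank2 neighbours, by smallest p (10 positive and 10 negative differences of all genes, up to 4 per list, 5 in the 24-library fit), as regional markers, or as leading genes of 1 library; exceptions are stated. Of these 20, 1 is counted but not reported here by name or value. Replicate numbers were not taken as pairs.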

Additional observations from a re-analysis of the deposited data

Results flagged for a closer look

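Both results listed here lie in P14 groups, where a group of 6 libraries can be tested for a single distant value; chance alone marks about 1 in 20 groups. LTO1 stood at 672 in P14 WT replicate 5, apart from the other 5 libraries of that group. Cttn stood at 4224 in P14 WT replicate 3, likewise apart from the other 5. Neither value enters the comparison of the 6 forebrain-containing P25 libraries. Both libraries also stood apart in tissue content. The score for olfactory sensory axons was 5.83 in P14 WT replicate 5 and −0.56 to 0.30 in the rest of that group. For midbrain and hindbrain genes the score was 5.12 in P14 WT replicate 3 and −1.67 to 0.11 in the rest. Whether tissue content bears on either flagged value was not tested.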

How the results depend on the processing

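Shank2 kept its direction in all 23 other settings, from −1.66 to −0.65 with adjusted p of 0.399 or more; leaving out 1 library gave −1.16 to −0.65, and the replicate block −1.11 (adjusted p = 1, limma). Same-numbered P25 libraries share a prefix in their labels whose meaning is not given. Within the 6, numbers 1 (0.747) and 3 (0.539) have both genotypes. Over all P25 libraries the numbers were not taken to pair them: correlations of deviations between same-numbered P25 libraries ran from −0.607 to 0.871, and only number 6 correlated best with its own, so the block, which called 0 genes, is a check only. Counts of called genes changed from 0 to 8 with DESeq2 and to 4 with the pituitary score, and for the difference of effects from 0 to 2 with DESeq2 (4 without P25 KO 2); leaving out each library gave 0 called in both comparisons, and the cause was not tested. At an unadjusted p under 0.05 the 285 genes became 140 to 1063 when 1 library was left out, 719 without a filter and 1346 in the fit of 24 libraries with region scores; without KO 1 there were 1063 and without WT 3 there were 898.

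Signs that turned belonged to differences that limma did not call; 1 of them, Lrrc17, was called by DESeq2 (−2.74, adjusted p = 0.000704). When libraries were left out, Shank3 ran from −0.40 (without WT 3 and KO 4 together, a setting added after seeing the data) to 0.092, Grin1 from −0.23 to 0.030, Grin2a from −0.42 to 0.15 and Grin2b from −0.12 to 0.33. With the striatal score Shank3 was 0.34, Grin1 0.17 and Grin2a 0.11. Grin2a was 0.025 with edgeR, 0.027 with DESeq2, 0.15 with the replicate block, 0.11 with the olfactory bulb score and 0.22 with 24 libraries and region scores. Grin2b was −0.076 with the pituitary score. With 24 libraries and region scores, Lrrc17 was 2.21 and Rnf207 0.097. The cause was not tested. With 3 libraries a group no exact p can fall under 0.1, and genes of low values such as Gm26793 rest on few reads.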
